A study of Homo sapiens with 6 samples.

Results

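The zinc-handling genes of the human genome were followed in ACHN, a long-established line of human kidney cancer cells, labelled by the submitters as clear cell renal cell carcinoma. They comprise the metallothioneins, the zinc exporters of the SLC30A family, the zinc importers of the SLC39A family and the transcription factor MTF1. They were chosen by gene name, as every row named SLC30A or SLC39A with a number, MT1 with a single letter, MT2A or MTF1. Earlier results of these data were known at that point. The rule found 35 genes among the 58735 rows of the count table, namely 10 metallothionein genes (one of them, MT1L, annotated as a pseudogene), 10 SLC30A genes, 14 SLC39A genes and MTF1. Poly(A)-selected RNA was sequenced from 3 control libraries and from 3 libraries of cells given curcumol, a sesquiterpenoid of Curcuma rhizomes, and the stated aim was to learn how it acts on glycolysis and malignant behaviour. Both groups are wild-type cells of this single line. The control is called a vehicle control in the sample labels but undrugged in the text of the series, and neither dose nor duration is stated in the sources used here.

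Zinc inside a cell is held at very low free concentrations. Metallothioneins are small cysteine-rich proteins that bind zinc, copper and cadmium and act as a store. Most SLC30A proteins (also called ZnT) carry zinc out of the cytosol, across the plasma membrane or into organelles. SLC39A proteins (ZIP) carry it into the cytosol. All SLC30A genes are called exporters here by family, whatever the direction of the single protein. MTF1 is the zinc-sensing factor that binds metal response elements in the promoters of metallothionein genes and of the exporter gene SLC30A1. In the kidney, metallothioneins are known as proteins of the tubule that bind cadmium.

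The metal response element has the core TGCACNC or TGCGCNC, and the promoters of 4 genes show how unevenly this core was distributed over the zinc-handling genes. The RefSeq promoter table (GRCh38.p14) gave windows of 300 bases, 250 before the start site and 50 after, for 26 of the 35 genes (35 windows). The bases before the start site are printed 5′ to 3′ on the strand of the gene, with cores on either strand in capitals. No cores overlapped in these 4 sequences, and 1 core each of MT2A and SLC30A1 lies after the start site and is not printed. MT2A lies at chr16:56608334-56608583 on the plus strand, MT1X at chr16:56682220-56682469 on the plus strand, MT1H at chr16:56669564-56669813 on the plus strand and SLC30A1 at chr1:211579162-211579411 on the minus strand.
MT2A: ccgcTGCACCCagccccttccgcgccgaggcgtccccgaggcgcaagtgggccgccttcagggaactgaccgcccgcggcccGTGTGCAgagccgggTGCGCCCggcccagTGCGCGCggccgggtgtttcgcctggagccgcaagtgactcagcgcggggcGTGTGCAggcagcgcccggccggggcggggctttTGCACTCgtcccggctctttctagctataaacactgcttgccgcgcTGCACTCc
MT1X: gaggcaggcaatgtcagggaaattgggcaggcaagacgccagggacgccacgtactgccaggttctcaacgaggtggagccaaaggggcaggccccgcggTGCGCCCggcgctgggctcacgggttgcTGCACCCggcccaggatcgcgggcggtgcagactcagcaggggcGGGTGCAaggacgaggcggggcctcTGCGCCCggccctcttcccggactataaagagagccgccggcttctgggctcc
MT1H: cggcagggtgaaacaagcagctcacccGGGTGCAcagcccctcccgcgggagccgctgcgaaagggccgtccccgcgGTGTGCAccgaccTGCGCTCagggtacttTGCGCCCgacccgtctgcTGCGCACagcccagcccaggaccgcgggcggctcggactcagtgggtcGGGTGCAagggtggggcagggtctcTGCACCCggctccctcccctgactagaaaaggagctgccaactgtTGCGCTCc
SLC30A1: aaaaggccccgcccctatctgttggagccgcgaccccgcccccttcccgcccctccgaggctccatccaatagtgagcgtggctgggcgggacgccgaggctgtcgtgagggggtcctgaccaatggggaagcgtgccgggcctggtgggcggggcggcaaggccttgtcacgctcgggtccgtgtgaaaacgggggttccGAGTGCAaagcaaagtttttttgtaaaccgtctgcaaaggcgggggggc

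Over the whole window of 300 bases, MT2A and MT1H held 8 cores each, MT1X held 4 and MT1B held 3. Of all 35116 windows in the table, 29.6% held at least 1 core, 2.3% at least 3 and 0.074% at least 6. All 4 metallothionein windows therefore held a number of cores found in few promoters. SLC30A1 held 2 cores, at 49 bases before the start site (first base at -49) and 25 bases after it, a number reached by 8.6% of windows. Of the 11 SLC30A windows 6 held a core and 3 held at least 2, and the most, 3 cores, were in the window of SLC30A2, an exporter that was nearly silent in these cells. Of the 19 SLC39A windows 7 held a core and 0 held 2 or more, and the window of MTF1 held 0. MT1A, MT1E, MT1F, MT1G, MT1L, MT1M, SLC30A8, SLC39A4 and SLC39A14 had no window. MT2A was the most abundant gene of the family in these cells, and MT1H, with as many cores, had 0 counts in all 6 libraries.

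Each library held 16962012 to 17827433 counts, and 15160 genes passed the filter on low counts and were tested for a difference (edgeR quasi-likelihood test with Benjamini-Hochberg adjustment over all of them, threshold 0.05). Levels are given as CPM, the count of a gene relative to a fixed total per library, scaled by TMM, which equalizes libraries on the bulk of their genes. The renal transcription factor genes PAX8 and PAX2 were present in all libraries, with means of 192 and 54 CPM in control and 60.1 and 26 CPM in curcumol. The epithelial genes KRT8 and KRT18 had means of 1970 and 650 CPM in control and 1326 and 550 CPM in curcumol. EPCAM had means of 47.1 CPM in control and 51.6 CPM in curcumol. CDH1 was rare, with 29 to 43 counts per library in control and 18 to 21 in curcumol. Of the genes often high in clear cell carcinoma, CA9 had 0 to 3 counts per library and NDUFA4L2 had 21 to 39. NNMT and VIM were abundant, with means of 228 and 1247 CPM in control and 174 and 938 CPM in curcumol. Of the leukocyte, endothelial and fibroblast markers, PTPRC, CD68, CD3E, PECAM1, CDH5 and DCN had 0 to 11 counts per library. The leukocyte gene PTPRC had 0 counts in each control library and 5, 8 and 7 in curcumol. The control libraries held 100, 91 and 94 counts of the collagen gene COL1A1, which fell to 14, 66 and 27 with curcumol (edgeR adjusted p = 0.0162). The part of these differences in the results on zinc genes was not tested.

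Of the 35 zinc genes 23 passed the filter on low counts. In curcumol 10 of these rose, 10 fell and 3 did not pass the test. Over all genes tested, 79.7% were called, 39.4% as higher and 40.3% as lower, so the share of zinc genes that moved was near that of the background. Of the zinc genes 3 rose and 7 fell by at least 2-fold, against 21.3% and 23.1% of all genes tested. The ranges of control and curcumol libraries were apart for 21 of the 23 genes, against 81.0% of all genes tested. The counts differed by family. Of the metallothioneins that passed the filter 4 of 5 fell and 0 rose. Among the exporters 5 of 6 rose and 0 fell, a count that depended on the scaling (given with these genes). The importers moved both ways, with 4 of 11 higher and 6 lower. The median log2 fold change was -1.60 for the metallothioneins, 0.73 for SLC30A and -0.19 for SLC39A, beside -0.02 for all genes tested. Genes under the filter are not part of these counts.

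**Figure D1:**
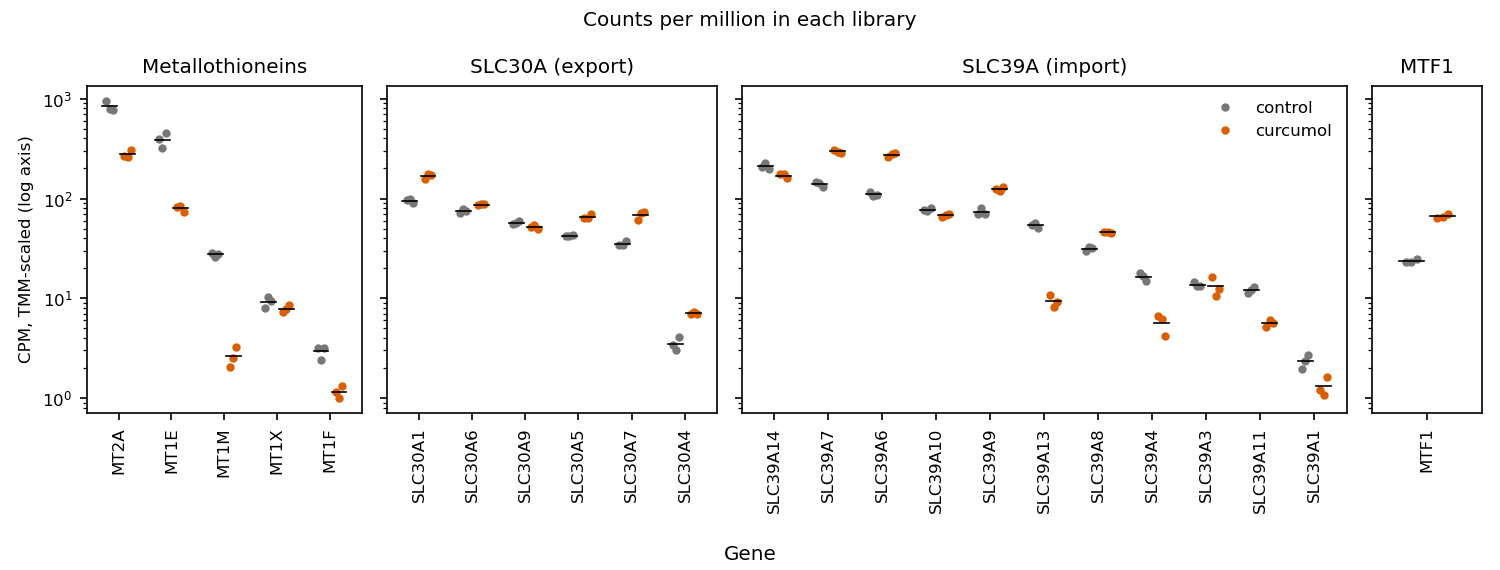
CPM (TMM-scaled, log axis) of the 23 tested zinc genes in each of the 3 control (grey) and 3 curcumol (orange) libraries, with a bar at each mean. MT2A ran from 776 to 952 in control and from 261 to 303 in curcumol, whereas SLC39A6 ran from 107 to 115 and from 259 to 283.

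Of the 5 storage genes tested, 4 were lower in curcumol, and MT1X did not pass. In bulk RNA, fewer cells with a transcript and less of it per cell cannot be told apart. Together the metallothionein genes held 1390, 1151 and 1269 CPM in the control libraries and 359, 357 and 390 CPM in the curcumol libraries, so the mean in control was 3.45 times that in curcumol. MT2A, the main metallothionein of most human tissues (ENSG00000125148, chromosome 16, 56608199 to 56609497, GRCh38), had 952, 793 and 776 CPM in control and 266, 261 and 303 CPM in curcumol. The groups lay far apart. MT2A fell by 1.60 ± 0.08 on the log2 scale (SE, n = 3 per group, edgeR adjusted p = 1e-12).

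MT1E, an isoform of the MT1 branch (ENSG00000169715, 56625475 to 56627112 on the same chromosome), had 398, 318 and 452 CPM in control and 82.1, 84.1 and 73.7 CPM in curcumol. The control libraries varied more than the curcumol libraries, and the groups did not overlap. It fell by 2.28 ± 0.13 on the log2 scale (SE, edgeR adjusted p = 1.77e-07). MT1M, another MT1 isoform (ENSG00000205364, 56632233 to 56633986), had 28.3, 26.2 and 27.9 CPM in control and 2.05, 2.51 and 3.28 CPM in curcumol. This was the steepest decrease of the 23 genes, 3.39 ± 0.15 on the log2 scale or 10.5-fold (SE, edgeR adjusted p = 5.71e-15), and -2.71 with an offset for GC content. MT1F was rare, with 59, 47 and 62 counts in control and 18, 16 and 21 counts in curcumol. It fell by 1.33 ± 0.28 on the log2 scale (SE, edgeR adjusted p = 0.000205), and its log2 change was -0.83 with the same offset.

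MT1X did not pass. It had 8.02, 10.4 and 9.39 CPM in control and 7.30, 7.79 and 8.59 CPM in curcumol, and the ranges overlapped. It stood at -0.23 ± 0.15 on the log2 scale (SE, edgeR adjusted p = 0.146). With scaling by library totals alone it stood at -0.50 and passed (edgeR adjusted p = 0.00411), and with an offset for GC content it stood at 0.03. The remaining metallothionein genes were under the filter. MT1A had 4, 8 and 7 counts in control and 0 in each curcumol library. A total of 0 allows up to 3 counts over the group, for counting error only. With the 19 control counts taken as exact, this makes MT1A at least 5.23-fold lower in curcumol. Counting error in the control group was not included, so the true bound is lower. MT1L had 0 to 4 counts per library. MT1B, MT1G and MT1H had 0 counts in all 6 libraries, as had the transporters SLC30A8 and SLC39A12, which allows up to 3 counts over the 6 libraries, or 0.0287 CPM.

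The isoforms moved by unequal amounts, and the make-up of the metallothionein mRNA differed between the groups. MT2A supplied 66.2% ± 4.36 of metallothionein counts in control and 75% ± 2.36 in curcumol (SD, n = 3). MT1E supplied 30.6% ± 4.34 and 21.8% ± 2.53, and the groups did not overlap for either gene. MT1X went from 0.741% ± 0.164 to 2.14% ± 0.0924 and MT1M from 2.17% ± 0.123 to 0.706% ± 0.136. These shares do not depend on the scaling between libraries. Metallothioneins took 0.125 to 0.152% of all counts in control and 0.0323 to 0.0358% in curcumol.

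**Figure D2:**
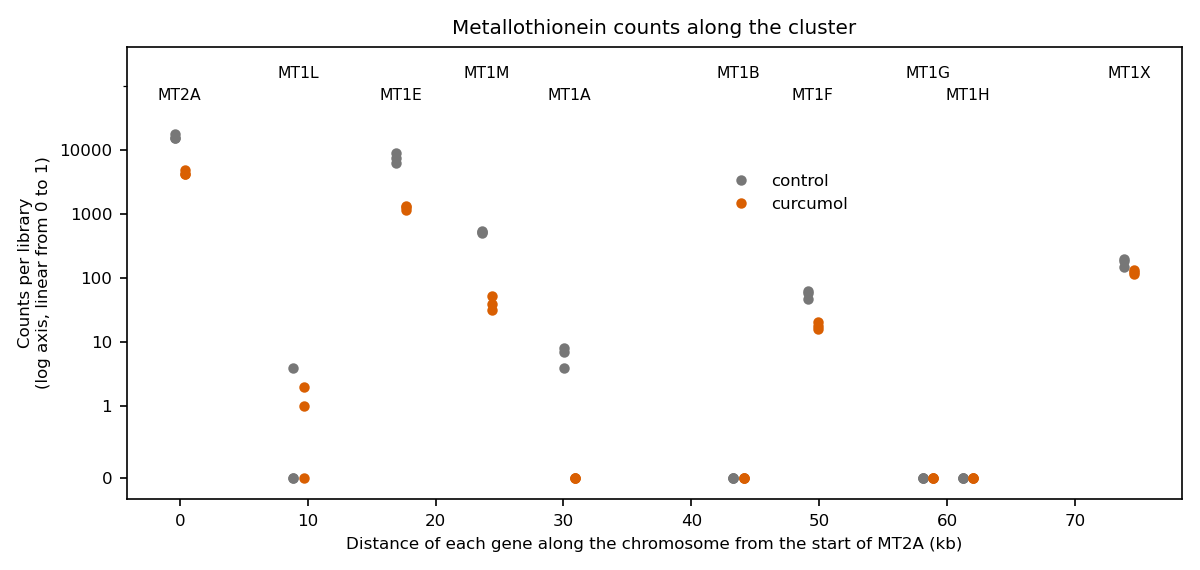
Counts of the 10 metallothionein genes in each control (grey) and curcumol (orange) library, against the distance of the gene from the start of MT2A. The counts were concentrated in MT2A and MT1E, at the start of the cluster, and MT1B, MT1G and MT1H had 0 counts.

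The 10 genes lie within 76 kb of chromosome 16, and near-identical paralogs can share reads. Of all stretches of 75 bases in the GENCODE 29 transcripts of MT1X, 14.3% also occur in transcripts of other genes, mostly AC026461.1, which had 0 counts. The shared part was 1.42% for MT1E, 0.23% for MT1M and 0.00% for MT2A and MT1F. MT1X also shares 321 of its 1773 exonic bases with AC026461.1 on the same strand, and its longest coding transcript has 538 bases. How the counting treated reads that match several genes is unknown. The level of MT1X is therefore uncertain by an unknown amount, and a small part of the MT1E value is uncertain.

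MTF1 moved the other way. Its gene (ENSG00000188786, chromosome 1, 37809567 to 37859620) had 23.3, 23 and 24.6 CPM in control and 63.3, 65.0 and 70.3 CPM in curcumol. It rose by 1.49 ± 0.08 on the log2 scale (SE, edgeR adjusted p = 2.93e-13), which was the highest value of the 23 genes with TMM scaling. With the GC offset it stood at 1.38, below SLC39A7 at 1.43. Over 15 alternative analyses its log2 fold change stayed between 1.22 and 1.52. The mRNA of the zinc sensor was thus 2.80-fold higher while the mRNAs of 4 metallothioneins, a family it is known to regulate, were lower.

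Of the 6 exporter mRNAs tested, 5 were higher with TMM scaling, and SLC30A9 did not pass. SLC30A1, the exporter of the plasma membrane and a known target of MTF1 (ENSG00000170385, chromosome 1, 211571568 to 211578742), had 95.8, 98.2 and 90.1 CPM in control and 158, 174 and 171 CPM in curcumol. All curcumol libraries lay above the control libraries. It rose by 0.82 ± 0.06 on the log2 scale (SE, edgeR adjusted p = 1.15e-10). SLC30A1 therefore moved in the opposite direction to MT2A, MT1E, MT1M and MT1F, genes of a family also known to be regulated by MTF1. The activity of MTF1 and its part in these changes were not tested.

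SLC30A7, which loads zinc into the Golgi, had 33.8, 34.1 and 37.4 CPM in control and 60.8, 71.4 and 73.6 CPM in curcumol. It rose by 0.97 ± 0.08 on the log2 scale (SE, edgeR adjusted p = 9.26e-10). SLC30A5, which together with SLC30A6 supplies zinc to enzymes of the secretory pathway, had 42.2, 41.7 and 42.7 CPM in control and 63.1, 64.2 and 70.0 CPM in curcumol, a rise of 0.64 ± 0.07 (SE). SLC30A4, a carrier of vesicles, was rare, with 63, 59 and 80 counts in control and 109, 116 and 109 counts in curcumol, and rose by 1.0 ± 0.18 (SE). SLC30A6 went from 75 ± 3.67 to 86.9 ± 1.17 CPM (SD, n = 3) and rose by 0.21 ± 0.07 on the log2 scale (SE, edgeR adjusted p = 0.00651). That call was lost without control replicate 1 (0.17, edgeR adjusted p = 0.0636) and with no filter on low counts (0.16, edgeR adjusted p = 0.0675). SLC30A9, a mitochondrial zinc transporter, stood at -0.14 ± 0.07 (SE) and did not pass, although its curcumol libraries all lay below the controls. The other 4 exporters were nearly silent, with 0 to 7 counts per library for SLC30A2, SLC30A3 and SLC30A10 and 0 for SLC30A8.

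The exporter genes have a low GC content, with a median of 38.5% for the tested members beside 48% for all genes tested, and genes of low GC content tended to have higher log2 fold changes here (Spearman's rho -0.34 over 15154 genes, which are not independent replicates). With an offset that removes this trend, SLC30A1 stood at 0.22, SLC30A7 at 0.29 and SLC30A4 at 0.50, all still called. SLC30A5 stood at 0.13 (edgeR adjusted p = 0.0635). SLC30A6 and SLC30A9 were then lower, at -0.40 and -0.69 (edgeR adjusted p = 1.96e-06 and 6.99e-10). The count of exporters thus went from 5 higher and 0 lower to 3 higher and 2 lower. With library totals it was 4 higher and 1 lower, and SLC30A6 stood at -0.05. The part of GC content in the difference between groups was not tested.

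**Figure D3:**
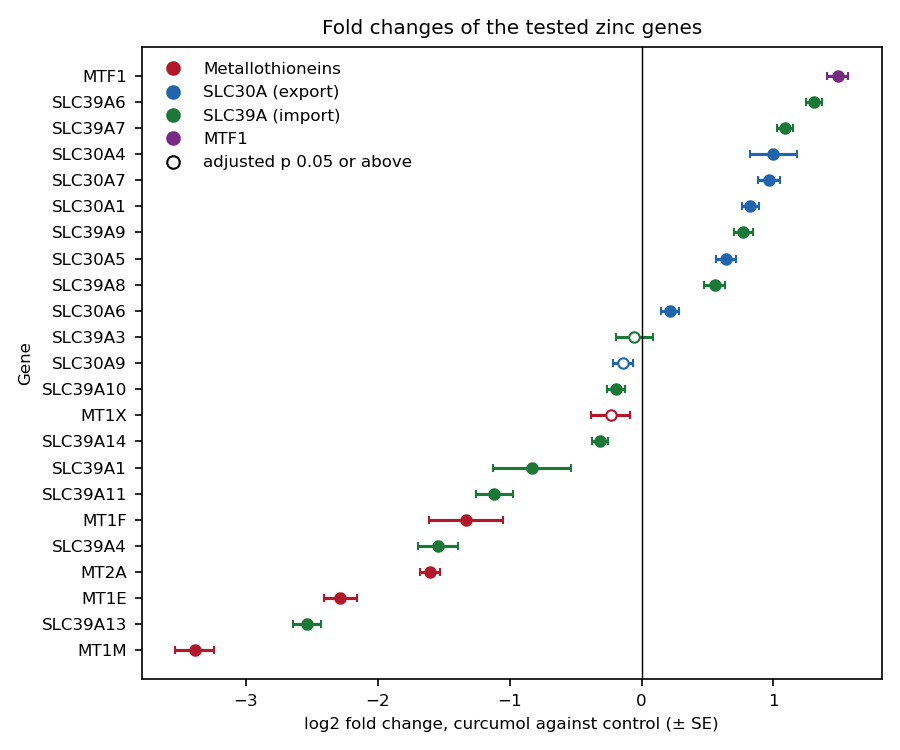
Log2 fold change of each tested zinc gene (curcumol against control, TMM scaling, bars ± SE), coloured by family, with open symbols for genes that did not pass the test. Metallothioneins (MT1M at -3.39) and SLC39A13 (-2.53) lie at the low end, and MTF1 (1.49) and SLC39A6 (1.31) at the high end.

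Among the importers, 4 genes rose and 6 fell, with the largest rises in genes of the plasma membrane and the endoplasmic reticulum. SLC39A6, an importer of the plasma membrane (ENSG00000141424, chromosome 18, 36108532 to 36129385), had 115, 107 and 109 CPM in control and 259, 277 and 283 CPM in curcumol. It rose by 1.31 ± 0.06 on the log2 scale (SE, edgeR adjusted p = 1.71e-14). SLC39A7, which releases zinc from the endoplasmic reticulum, went from 139 ± 8.09 to 297 ± 11.6 CPM (SD, n = 3), which is 1.09 ± 0.06 on the log2 scale (SE). SLC39A9, known from the Golgi and the plasma membrane, rose by 0.77 ± 0.07 and SLC39A8, a carrier of zinc and manganese, by 0.56 ± 0.08 (SE). All 4 kept their call in each of the 15 alternative analyses.

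SLC39A13, which releases zinc from vesicles of the secretory pathway and whose loss causes a connective tissue disorder (ENSG00000165915, chromosome 11, 47407132 to 47416501), fell most among the importers. It had 54.9, 57.3 and 50.8 CPM in control and 10.8, 8.16 and 9.22 CPM in curcumol. Every control library held at least 50.8 CPM and no curcumol library more than 10.8. The log2 change was -2.53 ± 0.11 (SE, edgeR adjusted p = 3.11e-15), or -1.84 with the GC offset. SLC39A4, the importer of dietary zinc in the gut, had 17.8, 16.8 and 15.0 CPM in control and 6.60, 6.15 and 4.23 CPM in curcumol, a log2 change of -1.55 ± 0.15 (SE). SLC39A11 had 11.4, 12.1 and 13.0 CPM in control and 5.12, 6.09 and 5.62 CPM in curcumol, a log2 change of -1.11 ± 0.14 (SE). The groups did not overlap for these 3 genes.

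SLC39A10, which pairs with SLC39A6 in the membrane, moved against its partner. It had 76.7, 75.7 and 80.2 CPM in control and 66.0, 68.0 and 69.6 CPM in curcumol. Its log2 change was small, -0.19 ± 0.07 (SE, edgeR adjusted p = 0.0135), and larger with the GC offset, -0.81 (edgeR adjusted p = 1.66e-12). SLC39A14, a carrier of zinc, iron and manganese and the importer with the highest CPM in control, went from 211 ± 14.8 to 169 ± 8.48 CPM (SD, n = 3), which is -0.32 ± 0.06 on the log2 scale (SE). SLC39A3, another importer of the plasma membrane, stood at -0.05 ± 0.14 (SE, edgeR adjusted p = 0.729) with overlapping groups, and at 0.44 with the GC offset (edgeR adjusted p = 0.00304).

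SLC39A1, generally a widely expressed importer, had only 36, 46 and 52 counts in control and 19, 17 and 26 counts in curcumol. Its log2 change of -0.83 ± 0.30 (SE, edgeR adjusted p = 0.015) was lost without control replicate 3 (-0.73, edgeR adjusted p = 0.061), without curcumol replicate 2 (-0.70, edgeR adjusted p = 0.0586) and with the GC offset (-0.38, edgeR adjusted p = 0.255). Of its 3388 exonic bases 2061 are shared with AL358472.7 on the same strand, which had 2 counts in all, and 280 with CREB3L4 on the other strand. The counts of SLC39A1 are therefore uncertain. SLC39A7 shares 244 exonic bases with RXRB, SLC39A9 shares 373 with ERH, and SLC30A5 shares 532 with AC010273.1, all on the other strand. SLC39A2, SLC39A5 and SLC39A12 had 0 to 13 counts per library.

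**Figure D4:**
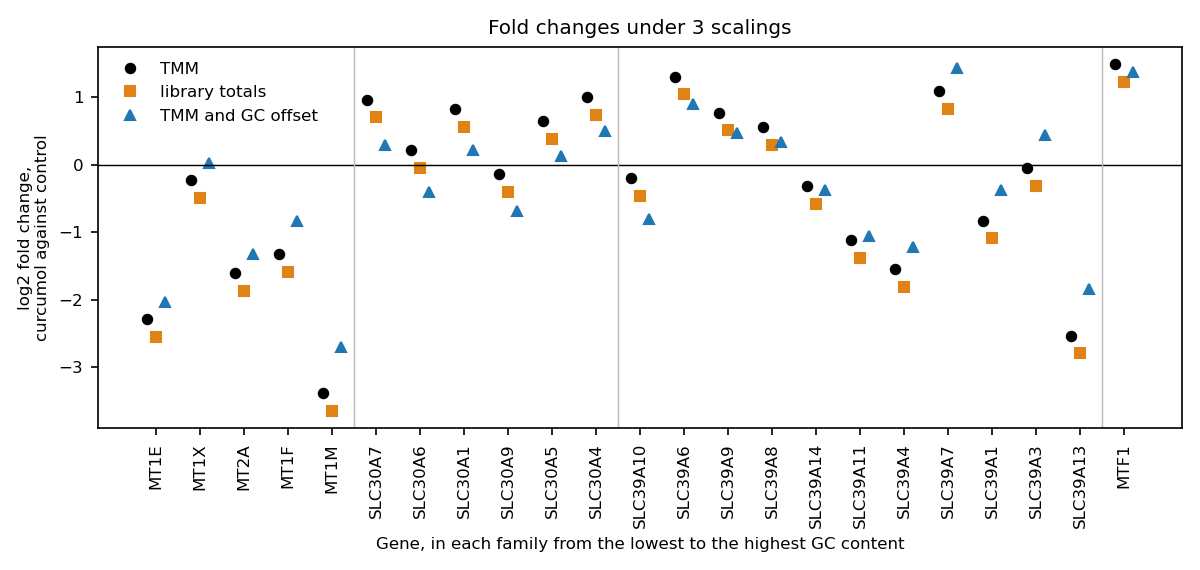
Log2 fold change of each tested zinc gene with TMM scaling (circles), library totals (squares) and TMM with a GC offset (triangles), ordered within each family by GC content. MT2A, MT1E, MT1M and MT1F were below 0 under all 3, and the SLC30A genes moved towards or below 0 with the GC offset.

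Levels of different genes can be compared per length. Divided by the length of the longest coding transcript, which may exceed that of the mRNA in use, MT2A held 1069 CPM per kb in control and 352 CPM per kb in curcumol. MT1E held 534 and 110 CPM per kb. The highest transporter on this scale was SLC39A7, with 57.9 CPM per kb in control and 123 in curcumol, followed in control by SLC39A14 (45.4) and in curcumol by SLC39A6 (77.1). On this scale the mean of SLC39A7 was above that of MT1E in curcumol, whereas in control MT1E was far above it. The order in curcumol, 123 against 110 CPM per kb, depends on the 729 bases taken as the length of MT1E. Summed over each family, exporters held 302, 313 and 309 CPM in control and 426, 459 and 459 CPM in curcumol. Their ratio was 1.46, or 1.21 with library totals. No family sum was taken with the GC offset, under which 3 exporters were higher and 2 lower. Whether the summed exporter mRNA stayed higher with that offset was not tested. Importers held 746, 766 and 714 CPM in control and 1020, 1010 and 1012 CPM in curcumol, a ratio of 1.37, or 1.14 with library totals. The summed importer mRNA was thus higher under both scalings, although 6 importer genes fell and 4 rose with TMM (5 and 5 with the GC offset). The abundant SLC39A6, SLC39A7 and SLC39A9 were among those that rose.

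Other genes that move or sense metals also went both ways. Of a list of 24 such genes outside the rule, 19 passed the filter, of which 8 rose, 9 fell and 2 did not pass, with a median log2 fold change of -0.14. Of all genes tested 79.7% were called, 39.4% as higher and 40.3% as lower, so these counts were near the background. The largest rises were those of SLC31A2, a copper transporter (1.70 ± 0.46), MCOLN1, a lysosomal cation channel (1.51 ± 0.12), and ATP7A, a copper-exporting ATPase (1.41 ± 0.17). SLC31A2 was rare, with 5 to 7 counts per library in control and 14 to 18 in curcumol. The largest falls were those of the metalloreductases STEAP3 (-2.97 ± 0.08) and STEAP2 (-2.20 ± 0.20) and of TMEM163, a zinc transporter of vesicles (-1.91 ± 0.53, all SE). STEAP3 went from 131 to 16.7 CPM. TMEM163 was rare too, with 17 to 32 counts per library in control and 1 to 7 in curcumol. Its edgeR adjusted p was 0.00248, and 0.0256 without control replicate 1. Among metallothioneins with other names, MT3, the neural form, had 0 to 2 counts in control and 3 to 7 in curcumol, and MT4 and MT1HL1 had 0 counts.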

How the data were processed

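The deposited file holds raw, unnormalized counts for each gene and library, per the file headers. The submitters' processing notes name GRCh38 (hg38). The aligner, counter and strand setting were not given in the sources used here. All 58735 identifiers are in GENCODE 29, which gave coordinates, overlaps, lengths and the GC content of the longest transcript. The members, the list of other metal genes and the tests were chosen with earlier results of these data known.

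After filterByExpr and TMM scaling, edgeR 4.0.16 (R 4.3.3) gave a robust quasi-likelihood F test per gene, and p was adjusted by Benjamini-Hochberg over all genes tested. The SE of a log2 fold change is its size over the root of F. Replicates differed by more than sampling noise (chi-square over its degrees of freedom, 3.58 to 8.58), and each library was treated as 1 sample. This spread does not show whether the libraries came from separate cultures. The code was tested on simulated counts. Alternatives were DESeq2 1.42.0, limma-voom (limma 3.58.1), other size factors, library totals, no filter, a filter of 1 CPM and 50 counts, a replicate block, a GC offset (spline, 5 degrees of freedom per library), both together, and each library left out.

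Every tested member is named. Values in all libraries are given for the tested metallothioneins, MTF1, SLC30A1, SLC39A10 and the 4 largest separated changes of each transporter family, and the 3 largest changes each way for other metal genes.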

Additional observations from a re-analysis of the deposited data

How the results depend on the processing

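Of the 626 values computed for single genes under 15 alternatives (for 42 genes, with those that failed the stricter filter missing), 588 kept their direction and their side of the threshold, 14 lost the call, 10 gained it and 14 changed sign. With the GC offset, and again with the replicate block together with the GC offset, 3 exporters were higher and 2 lower, against 5 and 0, and 5 importers were higher and 5 lower, against 4 and 6. With library totals and with no filter 1 exporter was lower. SLC30A6 stood at -0.052 with library totals, at -0.40 with the GC offset and at -0.40 with block and offset. SLC39A3 stood at 0.44 and 0.42 with the GC offset without and with the block, and CBWD1 of the other metal genes at -0.33 and -0.33. The other changes of sign were in genes that passed in neither analysis. MT1X stood at 0.028 with the GC offset and 0.031 with block and offset, and SLC39A3 ran from -0.248 to 0.092 (without curcumol replicate 2) with each library left out. ATOX1, at -0.019 in the main analysis, stood at 0.016 with other size factors, 0.016 with DESeq2, and -0.064 to 0.031 with each library left out, above 0 without control replicate 3 (0.031) and without curcumol replicate 3 (0.010). The offset removes a trend with GC content by construction, and what else set these differences was not tested. Metallothioneins gave 4 lower and 0 higher in the main analysis and with each library left out, 5 lower with library totals (MT1X) and with no filter (MT1A), and 3 lower with the stricter filter, under which MT1F was not run.

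Scaling by library totals moved the median log2 fold change of all genes from -0.02 to -0.28. The deviations of same-numbered libraries from their group means had low correlations (0.02, -0.01 and 0.08), and the numbers were not taken as pairs. Of the 3 control libraries, 2 were nonetheless closest to the curcumol library of their own number. With the replicate block 10 members were higher and 10 lower, as without it, and over all genes 5955 were higher and 6131 lower. With each library left out, 9 to 10 members were higher and 9 to 10 lower. Depth limits MT1F, SLC39A1, SLC30A4 and the genes under the filter, and the precision of the others is limited by having 3 libraries in each group.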

Other observations

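The neighbours of the metallothionein cluster on chromosome 16, which were looked up, and their number set, after the values had been seen, went both ways. Of the 3 nearest tested genes on each side, as far as they lay within 250 kb of the cluster, 2 rose and 3 fell. With 79.7% of all genes tested called, 39.4% as higher and 40.3% as lower, these counts were near the background. On the side of MT2A, BBS2, a gene of the primary cilium, stood at -0.96 ± 0.09 on the log2 scale (SE, edgeR adjusted p = 1.25e-09) and the mRNA processing gene NUDT21 at -0.24 ± 0.06. OGFOD1 stood at 0.72 ± 0.06. On the side of MT1X, the nuclear pore gene NUP93 stood at -0.56 ± 0.06 and HERPUD1, a gene of the endoplasmic reticulum stress response, at 1.33 ± 0.07 (edgeR adjusted p = 7.83e-14). With TMM scaling none of these neighbours had a log2 change as low as those of MT1M, MT1E, MT2A and MT1F. The other tested metallothionein, MT1X, stood at -0.23 and did not pass. BBS2 and NUP93 stood lower than MT1X, and NUDT21 stood close to it.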
